A study of Mus musculus and Homo sapiens with 18 samples.

Results

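The ribosome of the cytosol is built from ribosomal RNA and a set of ribosomal proteins, most of them encoded by a single gene each. The proteins of the small subunit help to read the messenger RNA, those of the large subunit surround the site where peptide bonds are made, and a stalk of acidic proteins on the large subunit recruits translation factors. Their mRNAs are short and abundant and begin with a tract of pyrimidines through which growth signals set their translation, and several members also regulate p53 when ribosome assembly is disturbed.

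The members were the mouse genes with a protein-coding transcript whose symbol has the form of a ribosomal protein name (Rpl or Rps and a number), together with Rplp0, Rplp1, Rplp2, Rpsa and Rps27a. This gave 83 of the 55858 genes of the mouse tables, with 31 core proteins of the small subunit, 43 core proteins of the large subunit, 3 stalk proteins and 6 paralogues (Rpl3l, Rpl7l1, Rpl10l, Rpl22l1, Rpl39l and Rps27l). In all 89 symbols had the form, and 6 of them had no protein-coding transcript (Rpl32l, Rpl6l, Rps12l1, Rps3a2, Rps3a3 and Rps4l). Among the genes the form leaves out are Fau, which encodes a fusion of a ribosomal protein with a ubiquitin-like domain, the small subunit protein Rack1, Rpl36al and Rps27rt.

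The series holds 18 RNA-seq libraries of bladder carcinoma made from poly(A) RNA, 6 groups of 3, of which the 12 mouse libraries were used. Relapsed tumours from a genetically engineered mouse model, or GEMM, labelled as given cisplatin and gemcitabine, were set against control tumours of that model, for which the protocol names a vehicle. CUUC-G, a mouse line, carried a guide RNA to Igfbp5 (sgIgfbp5), the gene of an insulin-like growth factor binding protein, and was set against the same line with the control guide sgScr. The labels call the targeted cells knockdowns and the series design speaks of knockouts. The alleles of the model, the age and sex of the mice, the number of clones of the line, and whether the 3 libraries of a group came from separate animals or cultures are not given in the sources used here. The p-values therefore measure the spread between these libraries, which may be technical.

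Library totals, in units of 1e6 estimated counts, lay between 18.97 and 21.76. Igfbp5 had 1.795, 3.19 and 2.402 CPM in relapsed tumours, against 0.182, 0.894 and 0.302 CPM in control tumours (CPM, counts scaled to a library of 1e6), and 0.606, 0.393 and 0.4698 CPM in sgIgfbp5 cells, against 1.04, 2.56 and 2.31 CPM in sgScr cells. It was thus higher at relapse, with a log2 fold change of 2.44 ± 0.44 (SE; adjusted p = 1.97e-05 by edgeR), and lower in sgIgfbp5 cells, with -1.999 ± 0.42 (SE; adjusted p = 0.00125 by edgeR). The libraries labelled as tumours held few transcripts of immune cells: the summed level of 10 immune markers was 5.13 to 6.23 CPM in relapsed and 2.26 to 2.65 CPM in control tumours, and Cd3e and Nkg7 were at 0 in all 6. Of 17 urothelial markers, Krt5 and Upk3a were at 0 in all 12 libraries. No counts were found for 2 of the 17 in relapsed and 4 in control tumours, and for 4 in sgIgfbp5 and 3 in sgScr cells. Of the 10 tested at relapse by edgeR 6 were higher and 1 was lower, beside 36.6% and 36.9% of all genes. Of the 12 tested in the line 4 were higher and 7 lower in sgIgfbp5 cells, beside 36.5% and 34.3%. The summed level of 17 urothelial markers was 624 to 651 CPM in relapsed and 31.7 to 39.0 CPM in control tumours, and 159 to 186 CPM in sgIgfbp5 and 670 to 755 CPM in sgScr cells. That of 9 fibroblast markers was 11165 to 11449 CPM in relapsed and 20480 to 21054 CPM in control tumours, and 5564 to 6222 CPM in sgIgfbp5 and 11792 to 12346 CPM in sgScr cells. Medians over the markers did not always follow these sums. The urothelial median was 0.761 CPM in relapsed and 0.419 CPM in control tumours, but 4.44 CPM in sgIgfbp5 and 1.02 CPM in sgScr cells. The fibroblast median was 108 CPM in relapsed and 83.3 CPM in control tumours, and 45.9 CPM in sgIgfbp5 and 105 CPM in sgScr cells. Of 6 endothelial markers the sum was 151 to 163 CPM in relapsed and 1.73 to 2.77 CPM in control tumours, and 8.78 to 9.10 CPM in sgIgfbp5 and 149 to 157 CPM in sgScr cells. Kdr made up most of it, with 156 CPM in relapsed and 1.44 CPM in control tumours, and 7.79 CPM in sgIgfbp5 and 153 CPM in sgScr cells. The Y-linked Ddx3y was at 0 in relapsed tumours and averaged 74.2 ± 4.02 CPM (SD, n = 3) in control tumours, while Xist averaged 483 CPM in relapsed and 0.0845 CPM in control tumours. The relapsed libraries were close to the sgScr libraries of the line, with 51 of 13903 genes and 0 of 80 members at least 2-fold apart in their mean level. Between relapsed and control tumours 2666 of these genes and 2 members were that far apart, and between sgIgfbp5 and sgScr cells 3549 genes and 5 members. The members were less alike by smaller differences. The median absolute log2 difference between relapsed and sgScr libraries was 0.114 over these genes and 0.215 over the members. Between relapsed and control tumours it was 0.442 over these genes and 0.233 over the members. The labels give neither the sex of the animals nor, for the tumours, whether RNA was taken from tissue or from cells grown from it: a protocol speaks of harvested tumours, and a cell line field is filled in as GEMM. The part of these differences in the results that follow was not tested.

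The question of the first comparison was which ribosomal protein transcripts differed in relapsed tumours. They differed in both directions and mostly by little: 80 of the 83 members passed the filter on low counts, of which 39 were higher in relapsed tumours, 22 were lower and 19 did not pass (edgeR quasi-likelihood test, Benjamini-Hochberg adjusted p under 0.05). Of all 14373 genes tested 73.5% were called, 36.6% higher and 36.9% lower, and of the members 76.3%, close to that background. Of the 61 called members 8 changed by more than 1.5-fold (13.1%), beside 6080 of the 10559 called genes (57.6%). The median log2 fold change over the tested members was 0.08, against 0.00 over all genes tested, with a range from -1.65 to 1.16. Relapsed and control libraries did not overlap for 37 of the 39 members that rose and for all 22 that fell, as for 96.8% of all genes called higher and 97.3% of those called lower. On log2(TPM + 1), where TPM is a transcript level per length, limma called 27 members higher and 29 lower, a share of 48.2% of calls that were higher, against 63.9% with edgeR. On that scale the median of all genes moved too: it was -0.02 over the members and -0.12 over all genes, a gap of 0.098, beside a gap of 0.083 with edgeR. With DESeq2 the median was 0.083 over the members and 0.088 over all genes. Without the low-count filter (edgeR) it was 0.065 and 0.067. The members' median was thus not above that of all genes in these alternatives. In bulk RNA fewer cells of a type and less RNA per cell cannot be told apart.

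All members together made up a slightly larger share of the counts at relapse. They took 4.42%, 4.48% and 4.47% of the counts of the relapsed tumours, against 4.33%, 4.07% and 4.25% of those of the control tumours. Every relapsed library lay above every control library (4.45 ± 0.0333% against 4.22 ± 0.132%; SD, n = 3; exact permutation p = 0.1, two-sided, the smallest that 3 against 3 allow). As a share of TPM the groups overlapped, with 15.3 ± 0.114% in relapsed and 15.5 ± 0.311% in control tumours (exact permutation p = 0.4).

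**Figure D1:**
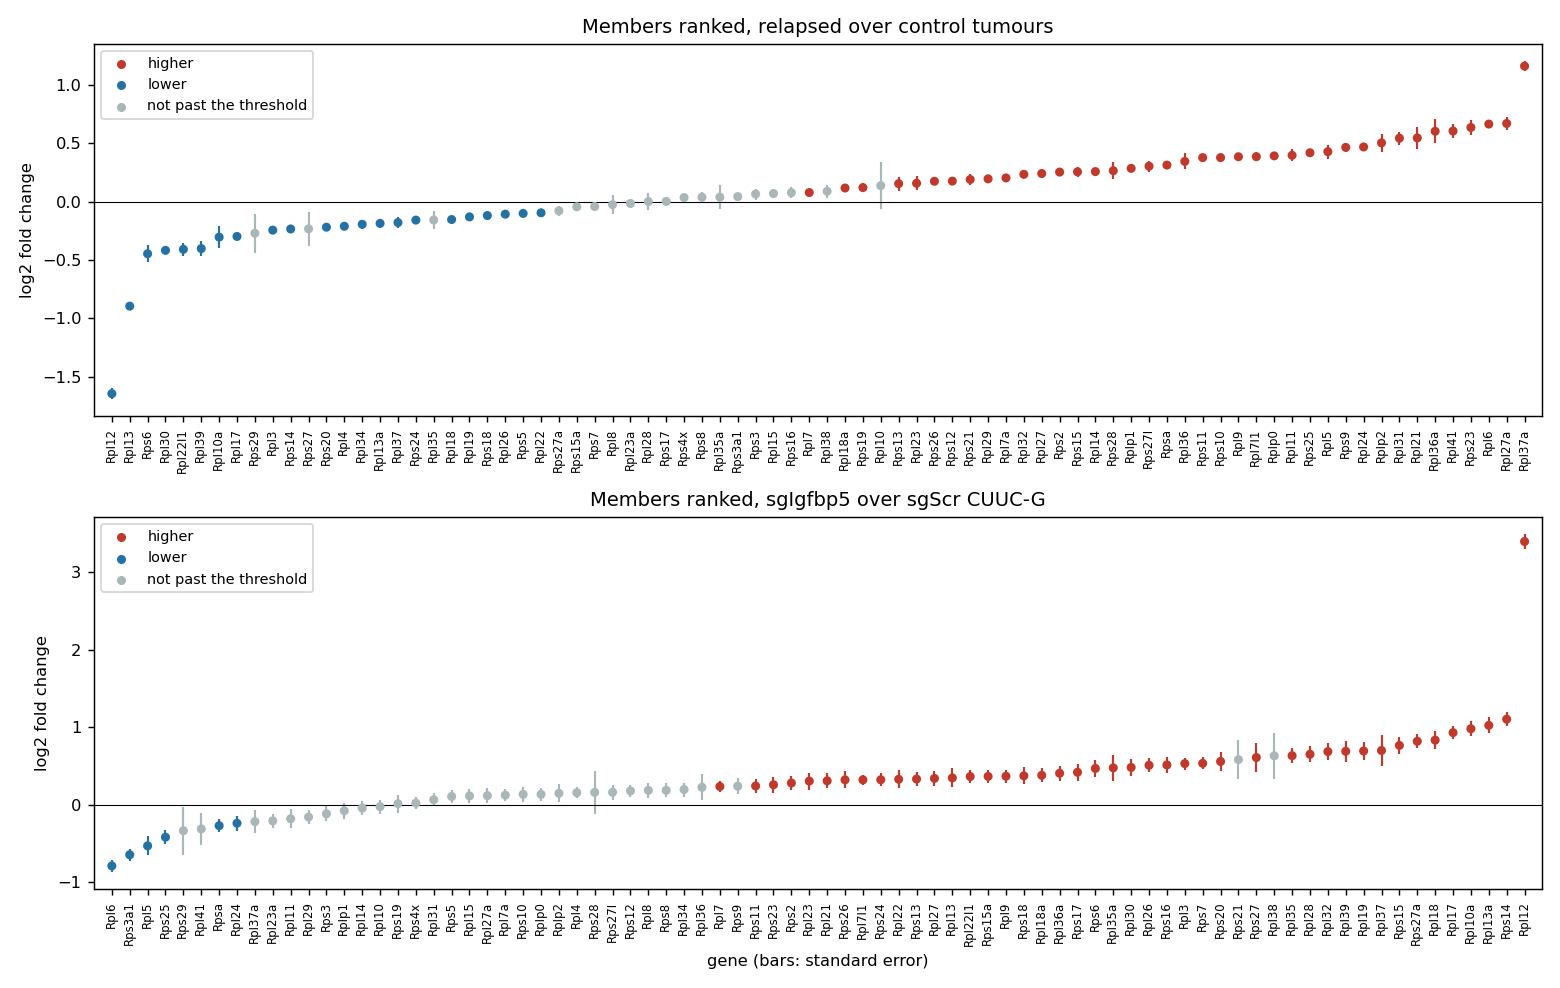
Log2 fold change of each of the 80 tested ribosomal protein genes, ranked within each comparison (relapsed over control tumours, and sgIgfbp5 over sgScr CUUC-G cells); bars are standard errors and colours mark whether the gene passed the edgeR threshold. Most tumour values lie close to 0, with a range from -1.65 to 1.16, while the CUUC-G values lie mostly above 0, with Rpl12 at 3.40.

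The 3 stalk proteins rose together at relapse. Rplp0, the scaffold of the stalk, had 3093, 3067 and 3083 CPM in relapsed tumours, against 2434, 2215 and 2387 CPM in control tumours. The relapsed values lay close together above all control values, a log2 fold change of 0.39 ± 0.03 (SE; adjusted p = 3.14e-12 by edgeR). Rplp1, an acidic protein that binds it, had 1504, 1488 and 1454 CPM in relapsed tumours, against 1269.8, 1231 and 1145 CPM in control tumours, with a log2 fold change of 0.29 ± 0.03 (SE; adjusted p = 1.12e-08 by edgeR). Its partner Rplp2 had 306, 327 and 305 CPM in relapsed tumours, against 229, 194 and 237 CPM in control tumours, with a log2 fold change of 0.51 ± 0.08 (SE; adjusted p = 0.000927 by edgeR). For both acidic proteins, too, every relapsed library was above every control library.

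Of the 43 core proteins of the large subunit 20 rose, 15 fell and 8 did not pass, with a median log2 fold change of 0.08. Rpl37a, a zinc-binding protein of this subunit, had 185, 192 and 191 CPM in relapsed tumours, against 79.5, 83.5 and 90.5 CPM in control tumours. Every relapsed library was far above every control library, the largest increase among the tested members by edgeR, with a log2 fold change of 1.16 ± 0.04 (SE; adjusted p = 6.12e-19 by edgeR). Rpl6, another core protein of the subunit, had 1485, 1514 and 1459 CPM in relapsed tumours, against 954, 909 and 945 CPM in control tumours, with a log2 fold change of 0.67 ± 0.03 (SE; adjusted p = 4.33e-18 by edgeR). Rpl27a had 169.6, 182 and 186 CPM in relapsed tumours, against 123, 107 and 106 CPM in control tumours, with a log2 fold change of 0.67 ± 0.05 (SE; adjusted p = 3.8e-10 by edgeR). In both genes the groups were well apart. Rpl41, which encodes the smallest ribosomal protein, rose by 0.61 ± 0.06 on the log2 scale, Rpl21 by 0.55 ± 0.10, Rpl31 by 0.55 ± 0.06 and Rpl24 by 0.47 ± 0.04 (SE, n = 3).

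Falls among large subunit proteins were led by Rpl12, a protein at the base of the stalk. It had 52.9, 51.3 and 50.3 CPM in relapsed tumours, against 164, 162 and 158 CPM in control tumours, without overlap and with a log2 fold change of -1.65 ± 0.04 (SE; adjusted p = 1.59e-22 by edgeR). Much of this gene's sequence is shared with a processed copy, whose values are given further on and change the size of this difference. Rpl13 had 332, 358 and 372 CPM in relapsed tumours, against 651, 647 and 677 CPM in control tumours, with a log2 fold change of -0.90 ± 0.04 (SE; adjusted p = 9.2e-18 by edgeR). Rpl30, which in yeast controls the splicing of its own transcript, had 360.0, 371 and 365 CPM in relapsed tumours, against 498, 482 and 482 CPM in control tumours, with a log2 fold change of -0.42 ± 0.03 (SE; adjusted p = 2.08e-12 by edgeR). No relapsed library reached a control library in any of these 3 genes. Smaller falls were -0.30 ± 0.03 on the log2 scale for Rpl17, -0.24 ± 0.03 for Rpl3, a protein close to the peptidyl transferase centre, and -0.21 ± 0.03 for Rpl4 (SE, n = 3). Rpl10a fell by 0.30 ± 0.10 with an adjusted p of 0.0385 by edgeR; the call was lost without relapsed replicate 1 (adjusted p = 0.053), without relapsed replicate 2 (0.0819) and without control replicate 1 (0.11).

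The core proteins of the small subunit were as mixed, with 14 of 31 higher, 6 lower and 11 not past the threshold and a median log2 fold change of 0.07. Rps23, a protein of the decoding centre, had 222, 242 and 236 CPM in relapsed tumours, against 167, 144 and 139 CPM in control tumours, with a log2 fold change of 0.64 ± 0.06 (SE; adjusted p = 1.49e-06 by edgeR). Rps9 rose by 0.47 ± 0.04 and Rps25, which some viral mRNAs need for translation, by 0.42 ± 0.03 (SE, n = 3). Rpsa, which is also known as the laminin receptor precursor, had 2711, 2659 and 2706 CPM in relapsed tumours, against 2238, 2123 and 2131 CPM in control tumours, with a log2 fold change of 0.31 ± 0.03 (SE; adjusted p = 1.18e-11 by edgeR). In these 4 genes all relapsed libraries were above all control libraries. Rps6, the substrate of the S6 kinases downstream of mTORC1, had 437, 443 and 496 CPM in relapsed tumours, against 620.1, 579 and 675 CPM in control tumours. It was lower in every relapsed library, with a log2 fold change of -0.45 ± 0.08 (SE; adjusted p = 0.00215 by edgeR). Rps14 fell by 0.23 ± 0.03 and Rps20 by 0.22 ± 0.03 on the log2 scale, and Rps20 did not pass on log2(TPM + 1) (limma adjusted p = 0.0578). Rps27a, made as a fusion with ubiquitin, had a log2 fold change of -0.08 ± 0.04 (SE; adjusted p = 0.0997 by edgeR) and did not pass. It passed as lower without control replicate 1 (adjusted p = 0.002), with the replicate number as a block (0.0384), with library size scaling (0.0434), without the low-count filter (0.0084), with its copies added (log2 fold change -0.14) and on log2(TPM + 1) (limma, -0.17, adjusted p = 0.0171).

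Members linked to p53 did not move as one. Rpl5 and Rpl11, which with the 5S ribosomal RNA bind Mdm2, the ubiquitin ligase of p53, were both called higher. Rpl11 had 383, 396 and 398 CPM in relapsed tumours, against 309.6, 268 and 316 CPM in control tumours, with a log2 fold change of 0.40 ± 0.05 (SE; adjusted p = 1.72e-05 by edgeR). Rpl5 had 69.9, 65.1 and 64.1 CPM in relapsed tumours, against 45.8, 49.5 and 52.6 CPM in control tumours, with a log2 fold change of 0.43 ± 0.06 (SE; adjusted p = 4.74e-07 by edgeR), and its processed copy turns this direction, as given below. Rpl23, which also binds Mdm2, changed by 0.16 ± 0.06 (SE; adjusted p = 0.0384 by edgeR), a call lost when any 1 relapsed library or control replicate 3 was left out (adjusted p from 0.0506 to 0.0994), with the replicate number as a block (0.0527), with library size scaling (0.0825) and with limma on log2(TPM + 1) (0.02, adjusted p = 0.798). Rpl26, which binds p53 mRNA, fell slightly, with a log2 fold change of -0.11 ± 0.03 (SE; adjusted p = 0.00182 by edgeR). Rps27l, a paralogue of Rps27 induced by p53 in human cells, had 90.4, 96.6 and 97.3 CPM in relapsed tumours, against 74.8, 77.6 and 77.8 CPM in control tumours. Its relapsed values were all above its control values, with a log2 fold change of 0.30 ± 0.05 (SE; adjusted p = 2.1e-06 by edgeR), while Rps27 itself, at -0.23 ± 0.15 (SE; edgeR adjusted p = 0.165), did not pass, except without relapsed replicate 3, without the low-count filter and on log2(TPM + 1) (limma adjusted p = 0.0437). The difference between the genes of a pair was not tested.

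Of the other paralogues, Rpl22l1 fell and Rpl7l1 rose, while Rpl10l, Rpl3l and Rpl39l did not pass the filter. Rpl22l1 had 57.9, 58.5 and 61.4 CPM in relapsed tumours, against 76.6, 83.6 and 75.9 CPM in control tumours, with no overlap and a log2 fold change of -0.41 ± 0.05 (SE; adjusted p = 1.46e-07 by edgeR). Its parent Rpl22, which in mouse represses Rpl22l1, changed by -0.09 ± 0.04 (SE; adjusted p = 0.0199 by edgeR), a call lost without relapsed replicate 1 (adjusted p = 0.117) or 3 (0.0607) and on log2(TPM + 1) with limma (0.1696). Rpl7l1 had 193, 197 and 193 CPM in relapsed tumours, against 154, 142 and 151 CPM in control tumours, a log2 fold change of 0.39 ± 0.04 (SE; adjusted p = 1.01e-09 by edgeR), and 0.08 ± 0.03 for Rpl7 (edgeR adjusted p = 0.0162), whose groups overlapped and whose call was lost without relapsed replicate 1 or 2 or control replicate 3 and with limma. On log2(TPM + 1) Rpl7l1 was at 0.11 and did not pass (limma adjusted p = 0.173). Rpl39l, a form of Rpl39 found mainly in testis, averaged 0.215 CPM in relapsed tumours and was at 0 in control tumours.

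The X chromosome holds 4 members, of which 1 rose, 1 fell and 2 did not pass. Rpl36a had 81.6, 86.8 and 86.97 CPM in relapsed tumours, against 65.1, 46.9 and 55.5 CPM in control tumours, with a log2 fold change of 0.61 ± 0.10 (SE; adjusted p = 0.00087 by edgeR), and Rpl39 had 184, 197 and 204 CPM in relapsed tumours, against 232, 263 and 278 CPM in control tumours, with a log2 fold change of -0.40 ± 0.06 (SE; adjusted p = 0.00025 by edgeR). The groups did not overlap in either gene, and the directions were opposite. Rps4x and Rpl10 did not pass, at 0.04 ± 0.03 (edgeR adjusted p = 0.253) and 0.14 ± 0.20 (edgeR adjusted p = 0.574). Rpl10 passed as higher without control replicate 3 and as lower with named pseudogenes added (-0.13), and Rps4x passed as lower on log2(TPM + 1) (limma, -0.076). Xist and the Y-linked genes differed between these groups, as given above.

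In the second comparison, CUUC-G cells with Igfbp5 targeted were set against their control. Here most called members were higher: 43 of the 80 tested members rose in sgIgfbp5 cells, 6 fell and 31 did not pass (edgeR). Of all 14553 genes tested 70.8% were called, 36.5% higher and 34.3% lower, and of the members 61.3%. The median log2 fold change over the tested members was 0.31, against 0.06 over all genes tested, with a range from -0.79 to 3.40, and 17 of the 49 called members changed by more than 1.5-fold (34.7%), beside 7212 of the 10305 called genes (70.0%). Libraries of the groups did not overlap for 36 of the 43 higher and 5 of the 6 lower members (83.7% and 83.3%), beside 96.8% of all genes called higher and 98.0% of those called lower. Scaling by library size alone gave 57 higher and 4 lower with a median of 0.42, against 0.17 over all genes, a gap of 0.25, as with TMM scaling. Without sgIgfbp5 replicate 2 the counts were 29 higher and 10 lower, a share of 74.4% of calls that were higher, against 87.8% with all libraries.

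The members took 6.59%, 7.19% and 6.17% of the counts of the sgIgfbp5 cells, against 4.56%, 5.06% and 5.61% of those of the sgScr cells. Every sgIgfbp5 library was above every sgScr library (6.65 ± 0.517% against 5.08 ± 0.527%; SD, n = 3; exact permutation p = 0.1, the smallest possible). Of the TPM they made up 20.2 ± 0.989% in sgIgfbp5 and 16.1 ± 0.892% in sgScr cells (exact permutation p = 0.1). With TMM scaling, as in the test, the summed level of the members was 64073 ± 5400.4 CPM in sgIgfbp5 and 52866 ± 5809 CPM in sgScr cells (SD, n = 3), and the groups overlapped by a small margin (58774 CPM in the lowest sgIgfbp5 and 58792 CPM in the highest sgScr library; exact permutation p = 0.2). The spread within each group of the line was larger than in the tumours, with a common biological coefficient of variation of 0.0995 against 0.0522.

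**Figure D2:**
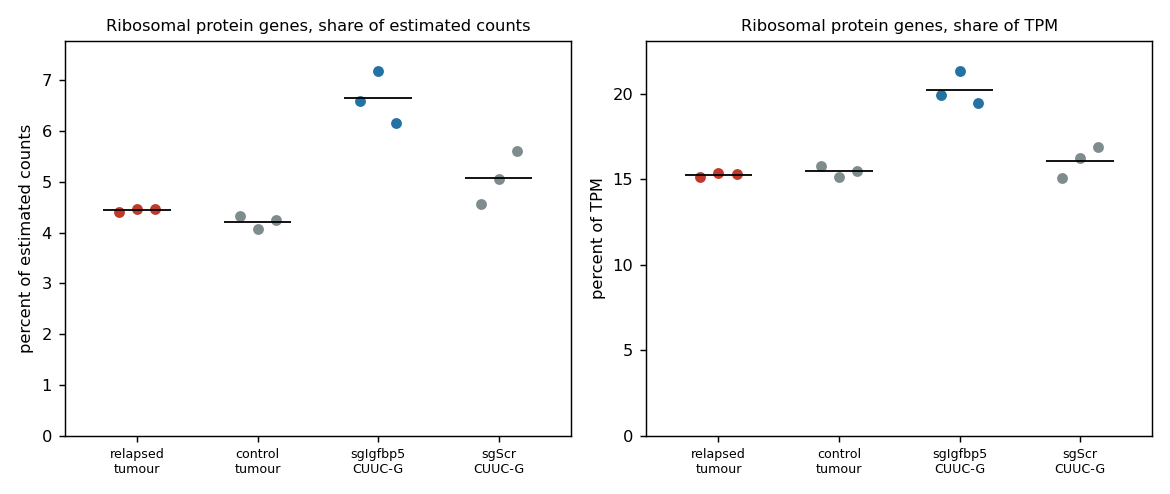
Share of each library's estimated counts (percent, y axis) taken by the 83 ribosomal protein genes; dots are the 3 libraries of a group and black lines their mean. Relapsed tumours lie between 4.42% and 4.48% and control tumours between 4.07% and 4.33%, and sgIgfbp5 cells lie between 6.17% and 7.19% and sgScr cells between 4.56% and 5.61%.

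The stalk proteins, higher at relapse, did not pass in CUUC-G, with log2 fold changes of 0.14 ± 0.09 for Rplp0 (edgeR adjusted p = 0.175), -0.08 ± 0.10 for Rplp1 (adjusted p = 0.522) and 0.15 ± 0.12 for Rplp2 (adjusted p = 0.273). Rplp0 passed as higher with library size scaling (0.25, adjusted p = 0.0179) and with limma on log2(TPM + 1) (0.20, adjusted p = 0.0126). Of the large subunit core proteins 24 rose, 3 fell and 16 did not pass, with a median of 0.33. Rpl12 was again the gene that differed most, now in the other direction, with 664, 723 and 608 CPM in sgIgfbp5 cells, against 57.6, 62.5 and 69.2 CPM in sgScr cells, and a log2 fold change of 3.40 ± 0.10 (SE; adjusted p = 1.79e-10 by edgeR). The values of its copy below bear on this size as well. Rpl13a, which in interferon-treated human monocytes leaves the ribosome to silence mRNAs, had 2208, 2531 and 2064 CPM in sgIgfbp5 cells, against 964, 1164 and 1212 CPM in sgScr cells. Each sgIgfbp5 library held over 1.5-fold the level of any sgScr library, and the log2 fold change was 1.03 ± 0.10 (SE; adjusted p = 4.79e-06 by edgeR). Rpl10a had 625, 713 and 584.6 CPM in sgIgfbp5 cells, against 286, 333 and 354 CPM in sgScr cells, with a log2 fold change of 0.98 ± 0.10 (SE; adjusted p = 4.3e-06 by edgeR), and Rpl17 had 1299, 1353 and 1184 CPM in sgIgfbp5 cells, against 629, 638 and 742 CPM in sgScr cells, with a log2 fold change of 0.93 ± 0.08 (SE; adjusted p = 1.8e-06 by edgeR). Neither overlapped between the groups. Rpl18 rose by 0.84 ± 0.11, Rpl19 by 0.70 ± 0.11 and Rpl32 by 0.69 ± 0.11 on the log2 scale (SE, n = 3). Rpl37 rose by 0.70 ± 0.20 with an adjusted p of 0.0121 by edgeR, a call lost when any 1 of the 3 sgIgfbp5 libraries was left out (adjusted p = 0.0852, 0.178 and 0.0627 for replicates 1, 2 and 3).

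In the small subunit 17 of 31 core proteins rose, 3 fell and 11 did not pass, with a median of 0.28. Rps14, whose loss causes the anaemia of the human 5q- syndrome, had 1495, 1561 and 1341 CPM in sgIgfbp5 cells, against 627, 659 and 756 CPM in sgScr cells. All sgIgfbp5 values lay well above the sgScr values, with a log2 fold change of 1.11 ± 0.09 (SE; adjusted p = 6.57e-07 by edgeR). Rps27a had 1291, 1368 and 1145 CPM in sgIgfbp5 cells, against 659, 704 and 791 CPM in sgScr cells, with a log2 fold change of 0.82 ± 0.09 (SE; adjusted p = 8.66e-06 by edgeR), and Rps15 rose by 0.77 ± 0.11. Rps6 had 898, 978 and 812 CPM in sgIgfbp5 cells, against 549, 649.7 and 739.7 CPM in sgScr cells, without overlap, and a log2 fold change of 0.47 ± 0.11 (SE; adjusted p = 0.00294 by edgeR).

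The 6 members that fell in sgIgfbp5 cells were Rpl6, Rps3a1, Rpl5, Rps25, Rpsa and Rpl24. Rpl6 had 903, 956 and 826 CPM in sgIgfbp5 cells, against 1477, 1505 and 1647 CPM in sgScr cells, with a log2 fold change of -0.79 ± 0.08 (SE; adjusted p = 3.8e-06 by edgeR). Rps3a1, a small subunit protein, had 529, 534 and 477 CPM in sgIgfbp5 cells, against 758, 797 and 849 CPM in sgScr cells, with a log2 fold change of -0.64 ± 0.07 (SE; adjusted p = 1.4e-05 by edgeR). Both were clearly separated between the groups. Rps25 changed by -0.42 ± 0.09 (SE; adjusted p = 0.00122 by edgeR) and Rpl5 by -0.53 ± 0.12 (SE; adjusted p = 0.00276 by edgeR), the direction of Rpl5 again depending on its copy. Rpsa had 2234, 2503 and 2067 CPM in sgIgfbp5 cells, against 2579.7, 2727 and 2882 CPM in sgScr cells, with a log2 fold change of -0.27 ± 0.08 (SE; adjusted p = 0.0143 by edgeR). That call was lost with library size scaling (log2 fold change -0.16, adjusted p = 0.0979), with limma on log2(TPM + 1) (-0.12, adjusted p = 0.24), and without sgIgfbp5 replicate 3 (adjusted p = 0.076), sgScr replicate 2 (0.052) or sgScr replicate 3 (0.0547). Rpl24, at -0.24 ± 0.09 (SE; adjusted p = 0.0406 by edgeR), overlapped between the groups and lost its call without sgIgfbp5 replicate 1 or 3 or sgScr replicate 2 or 3 (adjusted p from 0.0738 to 0.1594), with library size scaling (0.229) and with the replicate number as a block (0.0543).

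Among the other members named for the tumours, Rpl26 rose in sgIgfbp5 cells by 0.51 ± 0.09 (edgeR adjusted p = 0.00032), and Rpl23 rose by 0.31 ± 0.11 (adjusted p = 0.0268), a call lost without replicate 1 or 2 of either group. Rpl11 did not pass at -0.18 ± 0.13 (edgeR adjusted p = 0.226), and passed as lower without sgIgfbp5 replicate 2 (0.0457) or sgScr replicate 1 (0.024). Rpl7l1 and Rpl7 rose by 0.32 ± 0.07 and 0.24 ± 0.07, and Rpl22l1 and Rpl22 by 0.37 ± 0.09 and 0.33 ± 0.12. The call of Rpl7 was lost without sgIgfbp5 replicate 1 or 2 or sgScr replicate 2, and that of Rpl22 without replicate 1 or 2 of either group and with limma on log2(TPM + 1) (0.04, adjusted p = 0.659). Rps27 rose by 0.61 ± 0.19 (edgeR adjusted p = 0.0132), a call lost without sgIgfbp5 replicate 2 or 3 or sgScr replicate 1 (adjusted p from 0.0521 to 0.0629) and with limma on log2(TPM + 1) (0.0729). Rps27l did not pass (0.16 ± 0.09, edgeR adjusted p = 0.138), but passed as higher with library size scaling (0.27, adjusted p = 0.0176). Of the X-linked members, Rpl39 had 449, 511 and 435 CPM in sgIgfbp5 cells, against 249, 254 and 359 CPM in sgScr cells, with a log2 fold change of 0.69 ± 0.14 (SE; adjusted p = 0.00116 by edgeR), and Rpl36a rose by 0.41 ± 0.10. Rps4x and Rpl10 did not pass (0.02 ± 0.08 and -0.02 ± 0.09; edgeR adjusted p = 0.794 and 0.843).

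The comparisons share no library, but the relapsed and the sgScr libraries were nearly alike over all genes and stand on opposite sides of their comparisons. Values that follow from these 2 groups alone thus take opposite signs. Over the members these 2 groups were less alike, with a median absolute log2 difference of 0.215, beside 0.233 between relapsed and control tumours. Of the 22 members lower at relapse 19 were higher in sgIgfbp5 cells, which is 86.4% (62.9% of all genes lower at relapse), and none was lower (13.7% of these genes). Of the 39 members higher at relapse 5 were lower in sgIgfbp5 cells (Rpl6, Rpl24, Rpl5, Rps25 and Rpsa), which is 12.8% (66.1% of genes), and 15 were higher in both, which is 38.5% (12.02% of genes). These 15 include Rps23, Rpl36a, Rpl21, Rpl7l1, Rps15, Rpl32 and Rpl23. The 19 others higher at relapse, all 3 stalk proteins and Rpl37a, Rpl27a and Rpl41 among them, did not pass in CUUC-G, which is 48.7% (21.9% of genes). The differences between these shares were not tested.

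**Figure D3:**
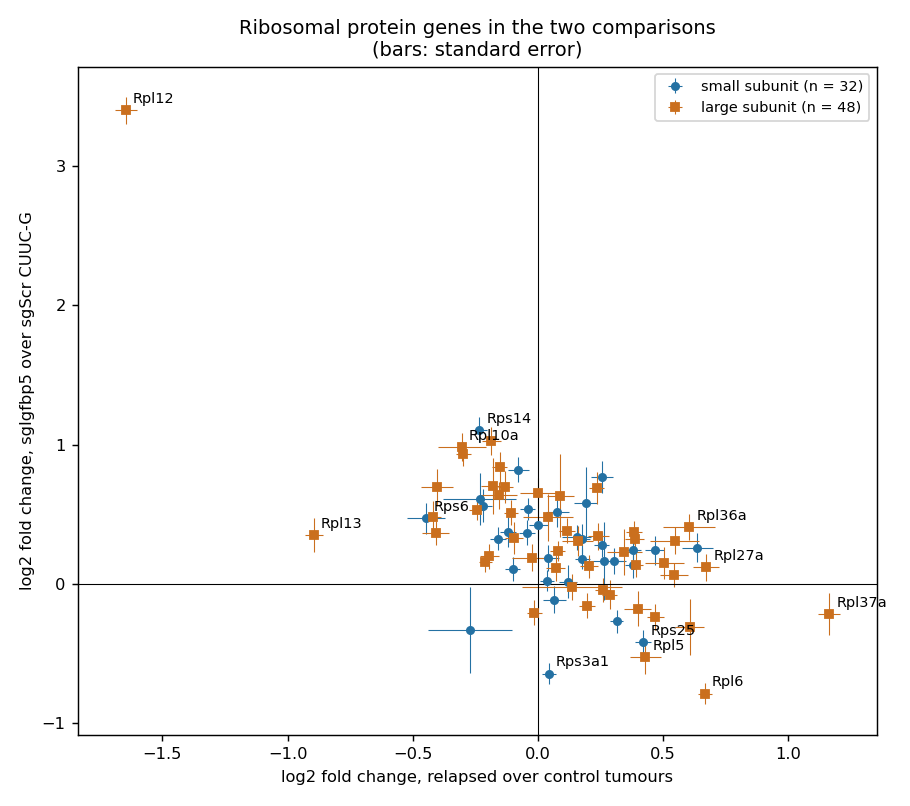
Log2 fold change of each tested member in relapsed over control tumours (x axis) against that in sgIgfbp5 over sgScr cells (y axis), with standard errors. The points that lie left of 0 are almost all above 0 on the y axis, with Rpl12 (-1.65 and 3.40) far from the others, and the points right of 0 lie on both sides.

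Among members, level per length varied far more than any member changed. Rplp1 had the highest TPM in all 4 groups, with 10461 ± 175 TPM in relapsed and 9164 ± 537 TPM in control tumours, and 8863 ± 491 TPM in sgIgfbp5 and 9684 ± 318 TPM in sgScr cells (SD, n = 3). The core protein Rpl5 had the lowest TPM of the tested members in all 4 groups, with 79.9 ± 6.19 TPM in relapsed and 63.5 ± 6.64 TPM in control tumours, and 58.9 ± 9.18 TPM in sgIgfbp5 and 78.97 ± 3.16 TPM in sgScr cells. Apart from the acidic stalk proteins a ribosome holds 1 copy of each, and the low value of Rpl5 goes with a processed copy that took between 93.5% and 96.9% of the counts of the pair in the 4 groups, as follows.

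Several members have processed copies (transcripts copied back into the genome) that are close in sequence, and counts of a parent and such a copy are uncertain, since reads that match both must be divided between them. Gm10275 (GRCm38 chromosome 10, 29698746 to 29699380, minus strand, a gene of 635 bases) holds 634 bases in a row that are identical to the protein-coding Rpl12-203 (Rpl12 lies on chromosome 2). Gm15500 (chromosome 7, 114705217 to 114706235, minus strand) is identical over its whole transcript of 894 bases to Rpl5-201 (chromosome 5). These 2 copies were singled out after their values were seen. Gm10275 had 909, 910.4 and 905 CPM in relapsed tumours, against 894, 892 and 919.7 CPM in control tumours, which overlapped (log2 fold change 0.01 ± 0.03; edgeR adjusted p = 0.762). In the line it had 807, 869 and 749 CPM in sgIgfbp5 cells, against 893, 962 and 1034 CPM in sgScr cells (log2 fold change -0.25 ± 0.08; edgeR adjusted p = 0.0155). It took 94.6% of the counts of the pair in relapsed and 84.8% in control tumours, and 54.9% in sgIgfbp5 and 93.9% in sgScr cells.

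Summed over the pair, Rpl12 and Gm10275 had 962, 962 and 955 CPM in relapsed tumours, against 1059, 1054 and 1078 CPM in control tumours, and 1471, 1592 and 1357 CPM in sgIgfbp5 cells, against 950.4, 1024 and 1103 CPM in sgScr cells. The groups stayed apart in both comparisons, by much less than for Rpl12 alone. With all copies matched by sequence added to their parents, an alternative chosen after seeing the data, the log2 fold change of Rpl12 was -0.14 at relapse (edgeR adjusted p = 3.33e-05) and 0.52 in sgIgfbp5 cells, against -1.65 and 3.40 for the gene alone.

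For Rpl5 the copy turned the direction. Gm15500 had 941, 955 and 945 CPM in relapsed tumours, against 1224, 1136 and 1175 CPM in control tumours, a log2 fold change of -0.32 ± 0.03 (SE; adjusted p = 1.61e-10 by edgeR), where Rpl5 itself was higher at relapse. In the line it had 1503, 1451 and 1393 CPM in sgIgfbp5 cells, against 923, 1006 and 1081 CPM in sgScr cells, a log2 fold change of 0.53 ± 0.08 (SE; adjusted p = 7.54e-05 by edgeR), where Rpl5 was lower in sgIgfbp5 cells. With copies added Rpl5 was at -0.27 (edgeR adjusted p = 1.99e-09) and 0.48 (adjusted p = 0.000157). With copies, Rpl36a and Rpl31 were less far apart at relapse at 0.245 and 0.33 on the log2 scale against 0.61 and 0.55. Copies also held most counts of the pair for Rpl27a and Rps23. Gm7536 took 64.5% of the Rpl27a pair in relapsed and 68.8% in control tumours, and rose by 0.40 ± 0.04 at relapse. Rps23-ps1 took 56.5% of the Rps23 pair in relapsed and 60.1% in control tumours, and rose by 0.42 ± 0.11 (SE, n = 3). The counts of called members changed little, to 39 higher and 25 lower at relapse and 48 higher and 5 lower in sgIgfbp5 cells.

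**Figure D4:**
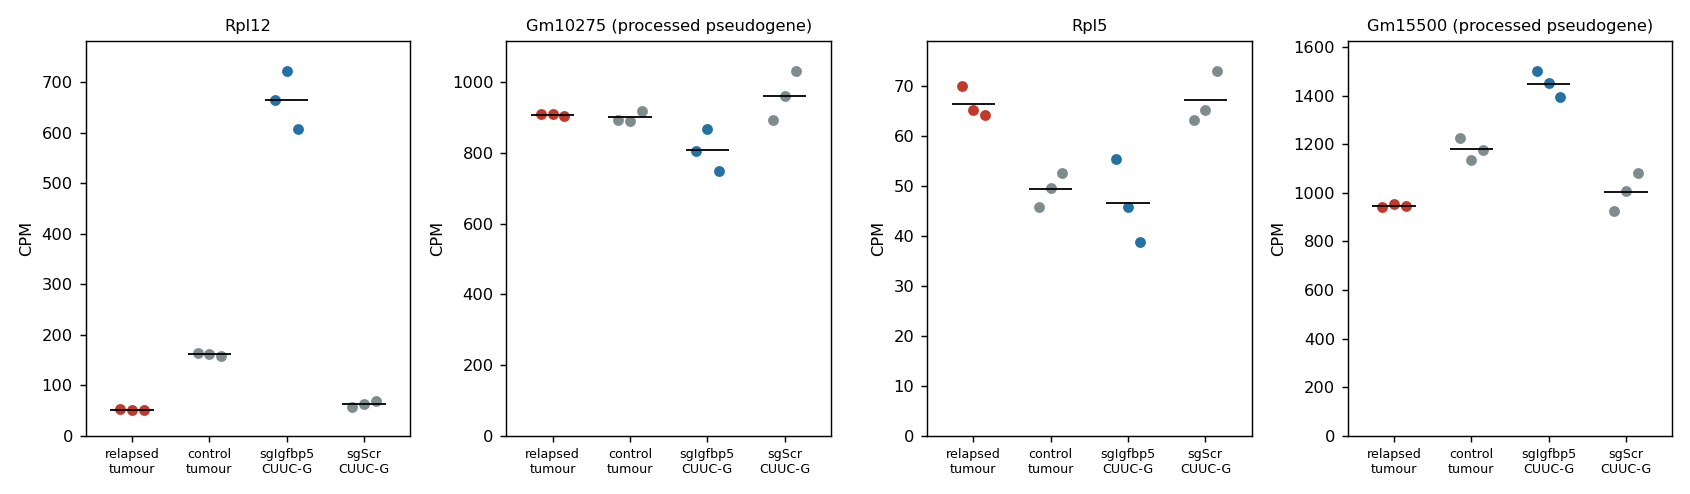
CPM (linear axis) of Rpl12 and Rpl5 and of their processed copies Gm10275 and Gm15500 in each library of the 4 groups. Dots are libraries and black lines means. Rpl12 lies between 50.3 and 52.9 CPM in relapsed and between 158 and 164 CPM in control tumours, while Gm10275 lies between 892 and 920 CPM in all 6 tumour libraries.

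The tumour table, unlike that of the line, is given by transcript, so changes could be placed within genes. The members have 498 transcripts in it, of which 348 were tested, 65 being higher at relapse and 28 lower (edgeR over 32281 transcripts, of which 32.5% were called, 16.2% higher and 16.3% lower). Of the 184 tested that are protein-coding 47 were higher and 19 lower, beside 19.9% and 20.1% of all 22259 such transcripts (40.1% in either direction). The remaining transcripts are not translated into the full protein. Transcripts annotated for nonsense-mediated decay (NMD), the pathway that degrades mRNAs with an early stop codon, passed mostly as lower: 6 of the 17 tested were lower at relapse and 1 was higher, whereas of all 1956 NMD transcripts tested 17.0% were called, 12.1% lower and 4.96% higher. Of the 112 tested transcripts with a retained intron 13 were higher and 1 was lower, whereas of all 4488 such transcripts 12.2% were called, 6.95% higher and 5.21% lower. Over all classes without a full reading frame 18 of 164 were higher and 9 lower (6.64% and 7.51% of the 8190 tested, 14.2% in all), and without relapsed replicate 1 the 18 became 10. NMD transcripts took 1.75%, 1.57% and 1.60% of the members' counts in relapsed tumours, against 2.07%, 2.22% and 2.17% in control tumours. The groups did not overlap (exact permutation p = 0.1, the smallest possible).

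Among transcripts without a full reading frame, the 2 with the smallest p and the fourth are NMD transcripts of Rpl12, Rpl10a and Rpl22l1; the splicing of the first 2 genes into such forms is known from mammals and other animals. At a splice site those of Rpl12 and Rpl22l1 hold a stretch that a protein-coding transcript of the gene (Rpl12-203 and Rpl22l1-206) lacks; the transcripts of each pair also differ at their ends. Their sequences, read from the GENCODE M21 transcripts on GRCm38, show in capitals this stretch and in lower case 15 bases shared with the protein-coding one. The capitals of Rpl12-201 (chr2:32961825-32961960, plus strand) are 121 bases added by a downstream 5′ splice site. Those of Rpl22l1-204 (chr3:28806670-28806751, plus strand) are 67 bases added by an upstream 3′ splice site.
Rpl12-201: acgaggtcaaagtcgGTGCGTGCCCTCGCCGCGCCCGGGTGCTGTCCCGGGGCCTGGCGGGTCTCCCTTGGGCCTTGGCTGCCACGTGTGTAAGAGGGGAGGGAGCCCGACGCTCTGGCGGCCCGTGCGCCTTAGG
Rpl22l1-204: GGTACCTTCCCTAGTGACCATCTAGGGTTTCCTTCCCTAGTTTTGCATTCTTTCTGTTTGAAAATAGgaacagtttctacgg

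Rpl12-201 had 21.8, 21.1 and 19.3 CPM in relapsed tumours, against 131, 132 and 127 CPM in control tumours, a log2 fold change of -2.65 ± 0.06 (SE; adjusted p = 2.3e-06 by edgeR). It took 40.9%, 40.8% and 38.0% of the Rpl12 counts in relapsed tumours, against 78.8%, 81.3% and 80.0% in control tumours. Of the counts assigned to Rpl12 itself, the NMD form thus held most in control tumours and made up most of their fall. The protein-coding Rpl12-203, identical to Gm10275 over 634 bases, took 9.26% to 11.4% in relapsed and 4.30% to 6.09% in control tumours. Gm10275 is left out of these shares, and it took 94.6% of the counts of the pair in relapsed and 84.8% in control tumours. Rpl12-201 shares 509 identical bases in a row with Gm10275, so its share also depends on how such reads were divided. Rpl10a-203 had 51.7, 54.9 and 53.8 CPM in relapsed tumours, against 122, 126 and 125 CPM in control tumours, a log2 fold change of -1.22 ± 0.04 (SE; adjusted p = 7.73e-06 by edgeR), and took 15.3%, 15.1% and 14.2% of the Rpl10a counts in relapsed tumours, against 27.6%, 25.5% and 31.6% in control tumours. Rpl22l1-204 had 4.57, 2.95 and 3.79 CPM in relapsed tumours, against 15.7, 18.2 and 15.1 CPM in control tumours, a log2 fold change of -2.11 ± 0.21 (SE; adjusted p = 0.000621 by edgeR), and took 7.88%, 5.06% and 6.12% of its gene's counts in relapsed tumours, against 20.2%, 21.7% and 19.9% in control tumours. All 3 were lower in every relapsed library, in level and as a share of their gene.

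The other transcripts named by p were the retained-intron Rps24-204 with -1.07 ± 0.09 (edgeR adjusted p = 0.00029), Rps6-204, which has no defined reading frame, with 1.46 ± 0.14 (adjusted p = 0.000668), and the retained-intron Rpl41-207 with 1.67 ± 0.20 (adjusted p = 0.00154). Rps6-204 was thus higher at relapse while the gene Rps6 was lower. Transcripts of 2 further genes were chosen after their values were seen. Rpl3-205, an NMD transcript of a gene whose protein controls the splicing of its own transcript in human cells, had 20.98, 19.9 and 18.7 CPM in relapsed tumours, against 28.1, 27.3 and 28.3 CPM in control tumours, without overlap and with a log2 fold change of -0.49 ± 0.08 (SE; adjusted p = 0.00482 by edgeR). The protein-coding transcripts of Rps24 changed in opposite directions. Rps24-202 had 99.9, 101 and 68.1 CPM in relapsed tumours, against 326, 291 and 331 CPM in control tumours, a log2 fold change of -1.82 ± 0.16 (SE; adjusted p = 0.000487 by edgeR), and Rps24-210 had 288, 295 and 275 CPM in relapsed tumours, against 177, 163 and 148 CPM in control tumours, a log2 fold change of 0.81 ± 0.07 (SE; adjusted p = 0.00042 by edgeR). Reads that several transcripts share are divided by estimation, so these levels are less certain than those of genes.

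**Figure D5:**
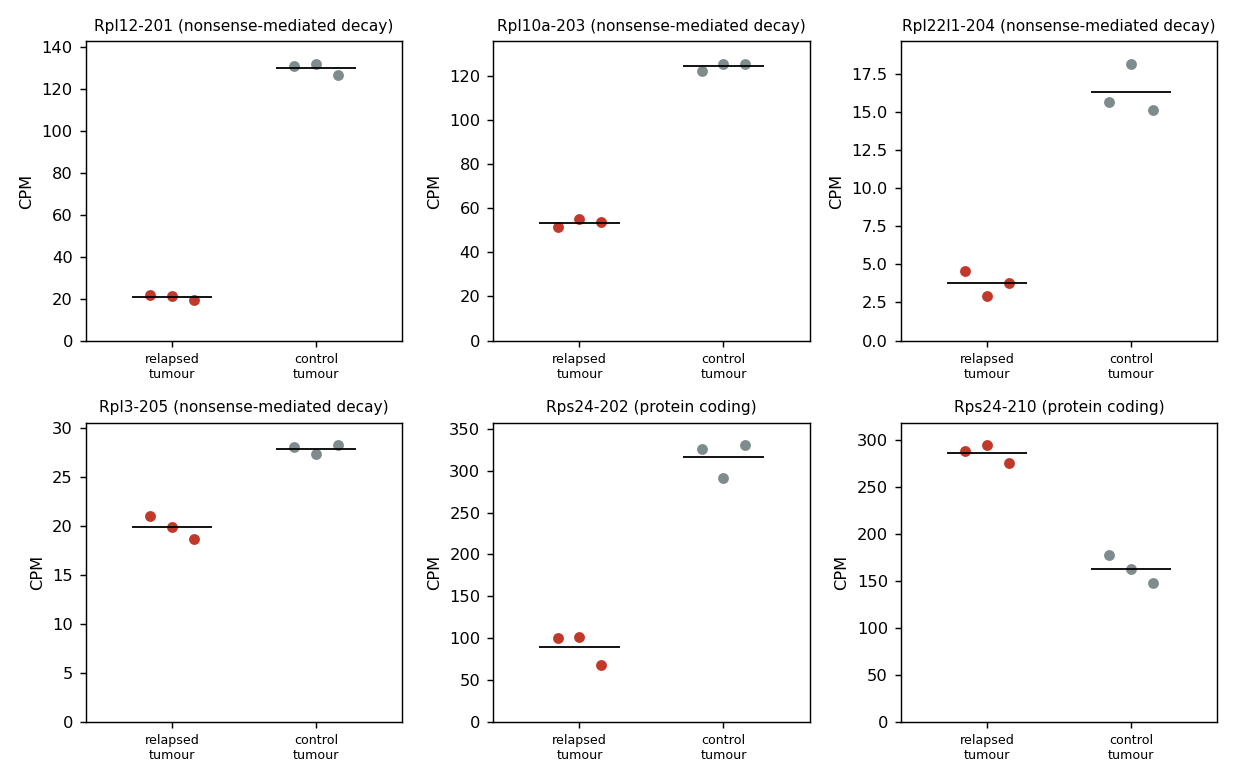
CPM of the named ribosomal protein transcripts in each tumour library, relapsed left of control; dots are libraries and black lines means. The NMD transcripts of Rpl12, Rpl10a and Rpl22l1 lie lower in every relapsed library, and Rps24-210 lies higher.

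The starts of the genes were read from the RefSeq table of GRCm38.p6, in which 63 of the 83 members were found. A tract that begins at the start base, a C followed by at least 4 bases that are each C or T, was present in 13 of these 63 (20.6%), against 813 of all 27025 genes of the table (3.01%). Allowing a C followed by at least 7 such bases anywhere within 20 bases of the start, read on the gene's strand, gave 30 of 63 (47.6%, against 14.8% of the table). The motif CCGGAAG, bound by ETS factors, was found on either strand within the 300 bases of 26 members (41.3%, against 9.93%), and AAGATGGC, a form of the YY1 motif, in 6 (9.52%, against 3.19%). Such matches only describe these windows.

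Windows of 41 bases from 5 members with the tract at the start base show it in members with different calls. The start base is base 21 of the window. Capitals mark the longest run in the window of a C followed by at least 4 bases that are each C or T. In these windows the run begins before the start base and spans it, and the tract counted above is its part from base 21 on. Rps6 (chr4:86857347-86857387, minus strand) and Rps18 (chr17:33955645-33955685, minus strand) were lower at relapse and higher in sgIgfbp5 cells. Rplp2 (chr7:141447631-141447671, plus strand), Rpl14 (chr9:120571497-120571537, plus strand) and Rps10 (chr17:27635224-27635264, minus strand) were higher at relapse and did not pass in CUUC-G.
Rps6: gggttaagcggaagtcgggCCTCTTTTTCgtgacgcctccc
Rps18: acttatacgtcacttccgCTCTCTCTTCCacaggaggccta
Rplp2: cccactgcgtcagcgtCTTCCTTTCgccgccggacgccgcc
Rpl14: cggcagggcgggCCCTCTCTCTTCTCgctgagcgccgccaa
Rps10: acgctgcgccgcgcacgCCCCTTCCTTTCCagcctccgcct

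By call, the tract at the start base was present in 4 of 31 members that rose at relapse (12.9%), 2 of 16 that fell (12.5%) and 7 of 13 that did not pass (53.8%). In CUUC-G it was present in 7 of 31 that rose (22.6%), 0 of 6 that fell and 6 of 23 that did not pass (26.1%). The tract within 20 bases of the start was in 12 of 31 that rose at relapse (38.7%) and 11 of 16 that fell (68.8%). It was in 7 of 13 that did not pass (53.8%). In CUUC-G, in the same order, it was in 15 of 31 (48.4%), 2 of 6 (33.3%) and 13 of 23 (56.5%). The YY1 motif was in 6 of 31 that rose in CUUC-G, 0 of 6 that fell and 0 of 23 that did not pass. At relapse it was in 1 of 31, 2 of 16 and 3 of 13. The differences between these shares were not tested.

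Other genes of ribosome production and of the same class of mRNAs are given beside all genes tested, of which 36.6% were higher and 36.9% lower at relapse and 36.5% higher and 34.3% lower in sgIgfbp5 cells. Translation factors whose mRNAs start with the tract, such as elongation factors, rose for 11 and fell for 3 of 18 tested at relapse (median log2 fold change 0.24), and rose for 2 and fell for 8 in sgIgfbp5 cells (median -0.18). The elongation factor Eef1a1 averaged 9556 ± 71.8 CPM in relapsed and 7223 ± 71.2 CPM in control tumours, a log2 fold change of 0.40 ± 0.02, and changed by -0.75 ± 0.07 in sgIgfbp5 cells. Nap1l1, a histone chaperone, changed by 0.60 ± 0.03 and -0.89 ± 0.09, and the initiation factor Eif4b by -0.40 ± 0.03 and 0.85 ± 0.07 in the tumours and the line (SE, n = 3).

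Host genes of small nucleolar RNAs, whose spliced transcripts carry the tract and are removed by NMD, fell for 5 of 7 at relapse with 0 higher (median -0.73) and rose for all 7 in sgIgfbp5 cells (median 1.09). Snhg1 averaged 88.3 ± 1.63 CPM in relapsed and 186 ± 6.203 CPM in control tumours, a log2 fold change of -1.07 ± 0.04, and 303 ± 17.9 CPM in sgIgfbp5 and 95.6 ± 10.1 CPM in sgScr cells, a log2 fold change of 1.66 ± 0.09. Gas5 changed by -0.35 ± 0.04 at relapse and by 1.09 ± 0.11 in sgIgfbp5 cells. Genes of RNA polymerase I and its factors rose for 6 and fell for 9 of 20 tested at relapse, and rose for 11 and fell for 4 in sgIgfbp5 cells. Ribosome assembly factors rose for 29 and fell for 26 of 66 at relapse, beside 36.6% and 36.9% of all genes, and rose for 32 and fell for 19 in sgIgfbp5 cells, beside 36.5% and 34.3%.

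Regulators of ribosome production fell for 12 and rose for 5 of 21 at relapse (median -0.24; 36.9% of all genes fell and 36.6% rose), and rose for 12 and fell for 3 in sgIgfbp5 cells (median 0.36; 36.5% and 34.3%). Myc, a transcription factor that drives ribosome production, had 189.7, 177 and 189 CPM in relapsed tumours, against 351, 353 and 331 CPM in control tumours, with a log2 fold change of -0.90 ± 0.04 (SE; adjusted p = 4.26e-18 by edgeR). In the line it had 452, 446 and 425 CPM in sgIgfbp5 cells, against 177, 184 and 187 CPM in sgScr cells, with a log2 fold change of 1.27 ± 0.07 (SE; adjusted p = 1.62e-08 by edgeR). The groups did not overlap in either comparison. Trp53, the gene of p53, changed by -1.02 ± 0.07 at relapse and 2.25 ± 0.10 in sgIgfbp5 cells, Rptor, a subunit of mTORC1, by -0.73 ± 0.05 and 0.95 ± 0.09, and Cnbp, which binds the tracts, by -0.37 ± 0.03 and 1.04 ± 0.07 (SE, n = 3).

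Among ribosomal protein genes that the naming form leaves out, Fau was higher in both comparisons, with log2 fold changes of 0.27 ± 0.09 at relapse and 0.53 ± 0.12 in sgIgfbp5 cells, and Rack1 was lower at relapse (-0.14 ± 0.03) and higher in sgIgfbp5 cells (0.34 ± 0.08; SE, n = 3). Rpl36al was higher at relapse only (0.19 ± 0.05), and the difference between the comparisons was not tested. Rps27rt passed in neither comparison.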

How the data were processed

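Per the labels' protocols, RNA was extracted with TRIzol, selected by poly(A) and prepared with a stranded mRNA kit; the submitters' processing notes name Salmon, without a version, and GRCm38. The authors deposited estimated counts and TPM, by transcript for the tumours and by gene for CUUC-G. Estimated counts of transcripts were summed by gene identifier and rounded, and CPM used library sizes scaled by TMM. Columns marked mI were taken as sgIgfbp5 because the labels mark the targeted human libraries hI. The number of columns of per-sample values matched to no sample was 0. The human MGHU3 libraries were not analysed here. Replicates within a group differed by more than sampling noise.

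Each comparison used its own 6 libraries. Differences were tested with edgeR 4.0.16 in R 4.3.3 (quasi-likelihood, filterByExpr, robust dispersion, two-sided), and p-values were adjusted by Benjamini-Hochberg over every feature tested, with a threshold of 0.05. Standard errors were derived from the log2 fold change and the F statistic. Single values were tested by exact permutation. Alternatives were DESeq2 1.42.0, other scalings and filters, limma 3.58.1 on log2(TPM + 1), a block for the replicate number, leaving out each library in turn, and counts of processed copies added to their parents. Copies were genes with a transcript annotated as a pseudogene that BLAST+ 2.17.0 matched to a member transcript over at least 100 bases at 85% identity or more. All counts of such a gene were added to the parent, Thap6 to Rpl7l1 among them. Named pseudogenes, a separate alternative, were instead picked by the member's symbol in their name. The edgeR tests were checked on simulated counts, and limma on simulated TPM, with known changes. The adding of copies was not checked in this way.

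The members and lists were chosen with earlier results of these data known. Named per comparison were up to 12 of the largest increases and decreases among called members whose average log2 CPM was 2 or more, and in both comparisons the paralogue pairs, the p53-linked, stalk and X-linked members, Rps6, Rpsa and Rps27a; of other lists up to 4 genes by p, and of transcripts without a full reading frame up to 6 by p. Positions came from GENCODE M21 on GRCm38. Protein sequences were not used here. Some items of the lists and sequences are not reported here.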

Additional observations from a re-analysis of the deposited data

How the results depend on the processing

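Most calls held under the 18 alternatives, which include leaving out each library. Of the values of named members under alternatives, 634 kept their side of the threshold without a reversal at relapse, 13 passed in addition, 33 no longer passed and 4 reversed. In CUUC-G these numbers were 586, 6, 37 and 1. A change of sign was counted as a reversal only where the main fit or the alternative passed. The reversed values were Rpl5 with sequence-matched copies (-0.27 at relapse, 0.48 in CUUC-G), Rpl10 at relapse with named pseudogenes (-0.13) and Rps4x at relapse on log2(TPM + 1) and log2(TPM + 0.1) (-0.076 each); the cause was not tested. At relapse, limma on log2(TPM + 1) gave a median of -0.020 (all genes -0.118) and, without a filter, 23 members higher; the share of TPM differed by -0.213 percentage points against 0.235 for counts. In CUUC-G the share of TPM differed by 4.18 points against 1.57. With a library left out, 36 to 40 members were higher and 20 to 24 lower at relapse (median 0.07 to 0.12, share 0.162 to 0.291 points), 29 to 52 higher and 4 to 10 lower in CUUC-G (median 0.19 to 0.38, share 1.30 to 1.84 points), and 10 to 16 transcripts without a full reading frame were higher and 9 to 10 lower. DESeq2 called 40 higher and 24 lower at relapse and 40 and 7 in CUUC-G.

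Replicate numbers did not pair the samples: deviations of same-numbered libraries correlated by 0.0189, 0.0292 and 0.0148 in the tumours and 0.0593, 0.113 and -0.162 in CUUC-G. With the number as a replicate block, 39 members were higher and 24 lower at relapse (median 0.09), 43 higher and 5 lower in CUUC-G (median 0.32), and 14 transcripts without a full reading frame were higher and 8 lower. Adding copies to their parents was chosen after seeing the data. With 3 libraries a group, an exact permutation test cannot go below 0.1. Short transcripts had larger errors (Spearman correlation of length and standard error over members -0.33 at relapse and -0.50 in CUUC-G).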

Other observations

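The ribosomal proteins of mitochondria, which form a separate ribosome for the proteins encoded by mitochondrial DNA, were counted beside the cytosolic ones. Of 77 tested genes 44 were higher and 21 lower in relapsed tumours (median log2 fold change 0.24), and 28 were higher and 24 lower in sgIgfbp5 cells (median 0.03; edgeR). Of all genes tested 36.6% were higher and 36.9% lower at relapse, and 36.5% higher and 34.3% lower in sgIgfbp5 cells. Mrpl24 averaged 30.7 ± 1.59 CPM in relapsed and 69.4 ± 1.901 CPM in control tumours, a log2 fold change of -1.17 ± 0.06, and 94.04 ± 10.3 CPM in sgIgfbp5 and 34.4 ± 2.16 CPM in sgScr cells, a log2 fold change of 1.45 ± 0.10 (SD and SE, n = 3). The log2 fold change of Mrps5 was -0.80 ± 0.06 at relapse and 0.96 ± 0.08 in sgIgfbp5 cells, and that of Mrpl18 was 1.09 ± 0.06 at relapse. Transcripts encoded by the mitochondrial genome took 2.79% to 2.81% of the counts in relapsed and 2.93% to 3.34% in control tumours (exact permutation p = 0.1, the smallest possible).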
